A study of Mus musculus with 15 samples.

Results

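Ibsp, Spp1, Nell1 and Nell2 encode secreted proteins best known from mineralized tissue or, for Nell2, from neurons, and were followed here in the mouse aorta-gonad-mesonephros (AGM) region, the part of the embryo in which the first hematopoietic stem cells arise. They are 4 of the 28876 genes in the deposited expression table and were taken by name. Ibsp and Nell1 had been selected on measured values, because their levels rose with stage in the ventral tissue and not in the dorsal tissue. Spp1 and Nell2 were added as the relative of each. The changes with stage in ventral and dorsal tissue, the difference between those changes, and the ventral against dorsal difference at E10.5, on which the study ranked its candidates, are therefore given for Ibsp and Nell1 as a description without a test.

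RNA was sequenced from C57BL/6 embryos, for which the labels name no transgene, mutation or treatment. The aorta was cut into a dorsal portion with adjoining tissue (AoD) and a ventral portion (AoV) on day E9.5 or E10.5 of gestation, and the mesonephros and future gonad were collected as urogenital ridges (UGR) on the later day. The 5 groups (E9.5 AoD, E9.5 AoV, E10.5 AoD, E10.5 AoV and E10.5 UGR) had 3 libraries each, and each library held dissected tissue pooled from several embryos. The study describes 3 separate experiments in which embryos were cut into these parts. Libraries of the same stage may therefore share embryos, for which the main fit held no term. The samples were whole tissue, so that more cells of a type and more RNA per cell cannot be told apart, and there was no UGR group at E9.5.

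Ibsp encodes bone sialoprotein and Spp1 encodes osteopontin. Both belong to the SIBLING family (small integrin-binding ligand, N-linked glycoproteins), acidic phosphoproteins that bind mineral and attach cells through an RGD motif to integrins. Bone sialoprotein marks differentiating osteoblasts and promotes the nucleation of hydroxyapatite, while osteopontin restrains mineral growth and is also made by macrophages, epithelia and smooth muscle. Nell1 and Nell2 encode NEL-like proteins, large secreted glycoproteins with a laminin G-like domain, von Willebrand factor C domains and EGF-like repeats. NELL1 promotes osteoblast differentiation. NELL2 is abundant in neurons, guides commissural axons through Robo3 and acts on the receptor ROS1 in the epididymis. No bone has formed in the mouse embryo at these stages.

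In the NCBIM37 build, to which the reads had been aligned, Ibsp (ENSMUSG00000029306) is a plus-strand gene of chromosome 5 at 104728190 to 104740488. Spp1 (ENSMUSG00000029304) lies 124 kb further along the same strand, from 104864137 to 104870069, within the cluster that holds the other SIBLING genes. Nell1 (ENSMUSG00000055409) spans 890 kb of the plus strand of chromosome 7 from 57230234 to 58120625. Nell2 (ENSMUSG00000022454) spans 453 kb of the minus strand of chromosome 15 from 94905661 to 95359137. The study counted reads that overlapped an annotated gene, and does not say whether only exons were used. All 4 genes are protein-coding. None of the 50-base windows of their coding transcripts (2019 in Ibsp, 1829 in Spp1, 5296 in Nell1 and 3975 in Nell2) occurred in a coding transcript of another gene.

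The promoters of Ibsp, Nell1 and Spp1 are shown because Ibsp and Nell1 were chosen for a ventral rise of more than 2-fold, while the change of Spp1, the cluster neighbour of Ibsp, stayed below 2-fold. Each is the RefSeq plus-strand sequence of GRCm38.p6 from 250 bases before to 50 bases after the annotated start, a later build than that of the gene positions above, and 3 of the 4 genes had an entry. Nell2 was not matched. Capitals mark the motifs searched on both strands, namely the TATA box letters TATAAA, the CCAAT box, the RUNX-type letters TGNGGT and the cyclic AMP response element core TGACG. The windows lie at chr5:104299037-104299336 for Ibsp, chr7:49975100-49975399 for Nell1 and chr5:104434861-104435160 for the first of 2 annotated starts of Spp1.
Ibsp: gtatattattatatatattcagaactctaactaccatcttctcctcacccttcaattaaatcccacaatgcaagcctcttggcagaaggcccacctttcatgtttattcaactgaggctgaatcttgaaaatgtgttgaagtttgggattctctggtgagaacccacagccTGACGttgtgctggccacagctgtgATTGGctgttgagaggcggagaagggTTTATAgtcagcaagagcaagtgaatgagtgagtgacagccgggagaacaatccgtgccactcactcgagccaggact
Nell1: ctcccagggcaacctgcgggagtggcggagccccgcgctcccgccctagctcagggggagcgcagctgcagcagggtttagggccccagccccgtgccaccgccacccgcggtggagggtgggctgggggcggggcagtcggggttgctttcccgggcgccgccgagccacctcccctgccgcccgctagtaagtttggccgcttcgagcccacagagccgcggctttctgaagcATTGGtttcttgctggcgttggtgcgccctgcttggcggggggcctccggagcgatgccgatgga
Spp1: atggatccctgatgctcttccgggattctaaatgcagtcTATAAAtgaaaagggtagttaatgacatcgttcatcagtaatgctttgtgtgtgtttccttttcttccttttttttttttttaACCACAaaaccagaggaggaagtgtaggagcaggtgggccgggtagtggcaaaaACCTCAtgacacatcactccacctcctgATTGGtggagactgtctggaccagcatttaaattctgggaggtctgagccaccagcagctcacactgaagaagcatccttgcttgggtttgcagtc

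The windows of the bone genes differed in composition. The Ibsp window had 46.3% GC and 5 CpG, and the Spp1 window had 45.3% GC and 3 CpG. The Nell1 window had 72.3% GC and 28 CpG, against medians of 52.7% and 7 over 32851 RefSeq promoter windows of that length. In Ibsp the letters TTTATA, which are the TATA box letters read on the minus strand, stood at -28 to -23, ATTGG, the CCAAT box on the minus strand, at -54 to -50, and TGACG at -79 to -75 from the start. Nell1 held ATTGG at -15 to -11 alone. Spp1 held TATAAA at -211 to -206, ATTGG at -46 to -42, and RUNX-type letters at -128 to -123 (ACCACA) and at -74 to -69 (ACCTCA). Of all windows, 13.6% held TATAAA, 37.4% CCAAT, 45.8% TGNGGT and 20.8% TGACG on either strand, so that a match to any of these letters was common. None of the motifs searched overlapped another in these windows.

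Levels are RPM, the reads of a gene per megaread assigned to genes, as the authors deposited them, and group values are mean ± SD with n = 3. The libraries held 33.8 to 48.6 M (megareads) assigned to genes, and 3 reads, up to which a true level may lie where 0 are counted, were worth 0.0617 to 0.0889 RPM. Such limits cover counting error only. Differences were fitted as log2(RPM + 0.1) with limma over all 15 libraries, which understates the change of genes at low level. Testing covered the 18553 genes that reached 0.5 RPM in 1 library or more, and a call needed an adjusted p (Benjamini-Hochberg) under 0.05 together with a difference of at least 2-fold. All 4 genes passed that filter. E9.5 AoD was the group with the widest spread for the 4 genes, with coefficients of variation of 46.2% for Ibsp, 43.6% for Nell1, 22.0% for Nell2 and 21.7% for Spp1.

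At E10.5, Ibsp was as high in the urogenital ridges as in the ventral aorta, and it was near the bottom of its range everywhere else. Its levels were 1.55, 2.42 and 0.919 RPM in E9.5 AoD, 1.12, 1.14 and 1.19 RPM in E9.5 AoV, and 0.692, 0.652 and 0.497 RPM in E10.5 AoD. They were 8.04, 6.88 and 7.5 RPM in E10.5 AoV and 7.7, 6.72 and 8.42 RPM in E10.5 UGR. The 6 libraries of E10.5 AoV and UGR thus lay apart from the other 9, whose highest was replicate 2 of E9.5 AoD. The E10.5 AoD values rested on 21 to 27 reads per library, and those of E10.5 AoV on 269 to 322 reads.

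As a description of the values that chose it, Ibsp was 7.47 ± 0.58 RPM in E10.5 AoV against 1.15 ± 0.0361 RPM in E9.5 AoV, a log2 difference of 2.60. Against the 0.614 ± 0.103 RPM of E10.5 AoD the difference was 3.42. In the dorsal tissue it went from 1.63 ± 0.754 RPM at E9.5 to 0.614 RPM at E10.5, a log2 difference of -1.19. That dorsal value depended on the spread of E9.5 AoD, being -1.53 without replicate 3 of that group and -0.87, under 2-fold, without replicate 2, and pseudocounts mattered for this low gene: with 1 RPM in place of 0.1 RPM the differences were 1.98, 2.39 and -0.67.

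The comparisons that the choice did not use, which share libraries with those it used, set E10.5 AoV and UGR close together for Ibsp. Their p values are therefore not independent of the choice. E10.5 AoV and E10.5 UGR overlapped, and the log2 difference was -0.02 (SE 0.23, 95% interval -0.52 to 0.48, limma adjusted p = 0.955), with a sign that changed under median-ratio scaling and under quantile normalization. E10.5 AoD was lower than E10.5 UGR by 12.4-fold in mean RPM (log2 difference -3.44, SE 0.23, limma adjusted p = 2.19e-08), with no overlap. At E9.5 the ventral and dorsal libraries overlapped, with a log2 difference of -0.37 (SE 0.23, 95% interval -0.87 to 0.13, limma adjusted p = 0.209). That limma adjusted p was 0.0386 under quantile normalization (log2 difference -0.60) and 0.0053 without replicate 3 of E9.5 AoD (log2 difference -0.71), both under 2-fold. Ranked by mean, Ibsp rose from E10.5 AoD to E9.5 AoV, E9.5 AoD, E10.5 AoV and E10.5 UGR, where E9.5 AoV and E9.5 AoD overlapped, as did E10.5 AoV and UGR.

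Nell1 was highest in E10.5 AoV, above the urogenital ridges as well as the dorsal aorta, and it was already higher in ventral than in dorsal tissue at E9.5. It stood at 1.4, 2.72 and 1.31 RPM in E9.5 AoD, at 4.33, 4.82 and 4.46 RPM in E9.5 AoV, and at 1.3, 1.47 and 1.3 RPM in E10.5 AoD. In E10.5 AoV it reached 15, 16 and 15 RPM, and in E10.5 UGR 4.81, 4.06 and 5.12 RPM. No library outside E10.5 AoV came near these 3, and the E9.5 AoV and UGR libraries overlapped. Replicate 2 was again the high library of E9.5 AoD.

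In the contrasts used for its choice, Nell1 was 15.3 ± 0.577 RPM in E10.5 AoV, 4.54 ± 0.254 RPM in E9.5 AoV and 1.36 ± 0.0981 RPM in E10.5 AoD, log2 differences of 1.74 and 3.41. Between E10.5 AoD and E9.5 AoD, at 1.81 ± 0.789 RPM, the difference was -0.32 and the libraries overlapped. Without replicate 2 of E9.5 AoD it was 0.00. The contrasts that were not used share libraries with those used, so that their p values are not independent of the choice. Among them, Nell1 was higher in E9.5 AoV than in E9.5 AoD by 2.51-fold in mean RPM (log2 difference 1.35, SE 0.19, limma adjusted p = 4.37e-05). It was higher in E10.5 AoV than in E10.5 UGR by 3.29-fold (log2 difference 1.70, SE 0.19, limma adjusted p = 9.28e-06), and lower in E10.5 AoD than in E10.5 UGR by 3.44-fold (log2 difference -1.70, SE 0.19, limma adjusted p = 4.95e-06). None of these 3 pairs of groups overlapped. By mean, Nell1 went from E10.5 AoD through E9.5 AoD, E9.5 AoV and E10.5 UGR to E10.5 AoV, the first 2 overlapping each other, as did the next 2.

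**Figure D1:**
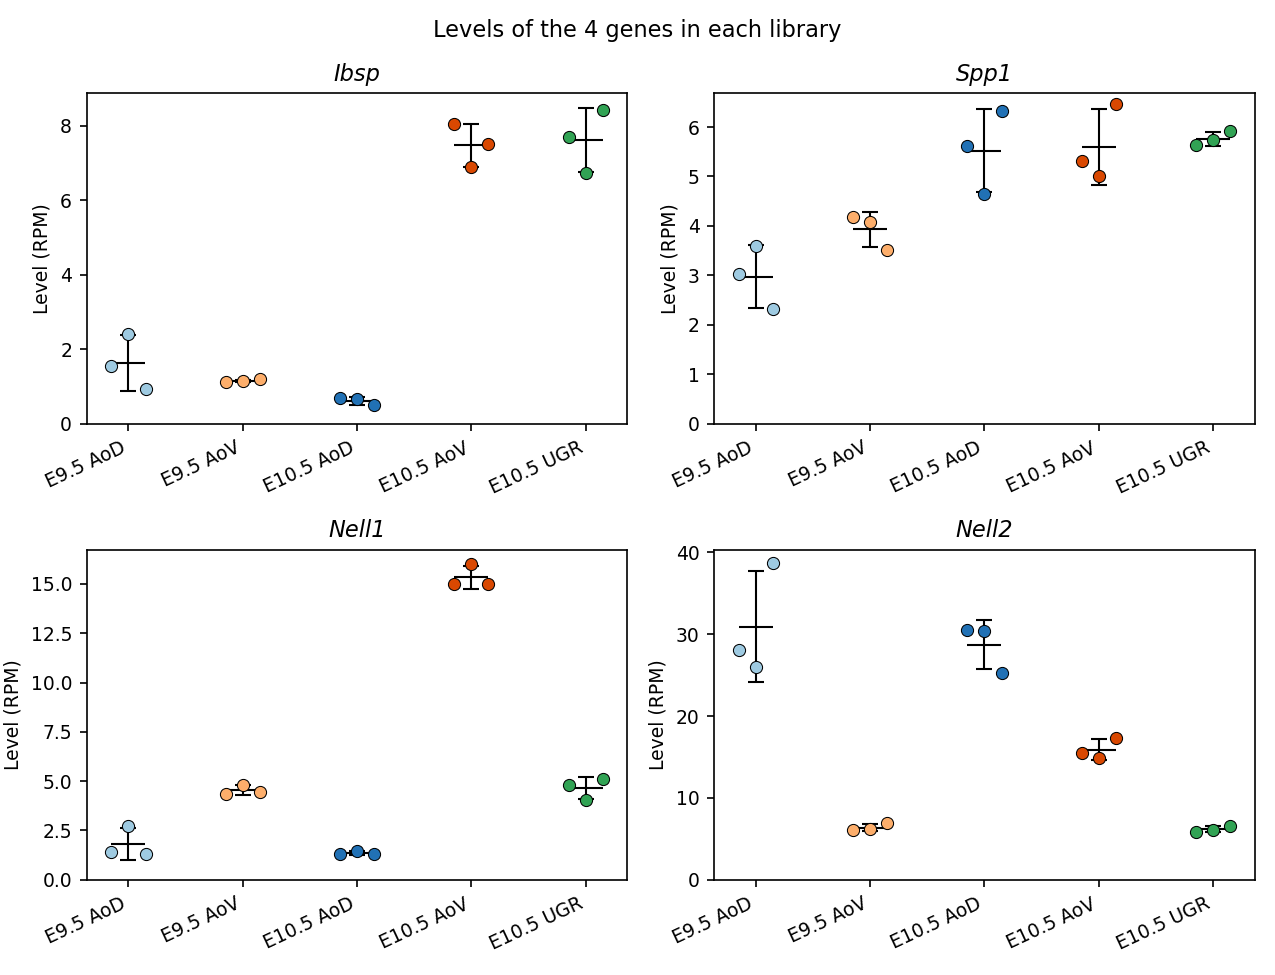
Level in RPM (vertical axes, from 0) of Ibsp, Spp1, Nell1 and Nell2 in the 3 libraries (points) of each of 5 groups, with the group mean (long bar) ± SD (whiskers). Ibsp is high in both E10.5 AoV and E10.5 UGR, Nell1 in E10.5 AoV at 15 to 16 RPM, Nell2 in both AoD groups, and Spp1 stays between 2.31 and 6.47 RPM.

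Nell2 had the opposite order in space but shared the ventral rise with stage. Its levels were 28.1, 26 and 38.7 RPM in E9.5 AoD and 30.5, 30.4 and 25.3 RPM in E10.5 AoD, its highest levels, against 6.04, 6.19 and 6.87 RPM in E9.5 AoV. In E10.5 AoV it was 15.5, 14.9 and 17.3 RPM, and in E10.5 UGR 5.87, 6.13 and 6.53 RPM. The 2 dorsal groups overlapped, E10.5 AoV lay below both, and E9.5 AoV and UGR overlapped at the bottom. The highest library, replicate 3 of E9.5 AoD, was also the one with the highest sum of neuron markers, given below.

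Nell2 rose in the ventral aorta from 6.37 ± 0.442 RPM at E9.5 to 15.9 ± 1.25 RPM at E10.5, a 2.50-fold difference in mean RPM (log2 difference 1.31, SE 0.12, limma adjusted p = 7.94e-07). In the dorsal aorta it went from 30.9 ± 6.81 to 28.7 ± 2.97 RPM (log2 difference -0.09, 95% interval -0.35 to 0.18, limma adjusted p = 0.558), a value that turned to 0.08 without replicate 3 of E9.5 AoD. The difference between those changes, tested as an interaction of stage and position, was 1.40 on the log2 scale (SE 0.18, limma adjusted p = 3.16e-05). The ventral rise narrowed the gap to the dorsal side. At E9.5 Nell2 was 4.86-fold lower in AoV than in AoD (log2 difference -2.24, SE 0.12, limma adjusted p = 3.5e-09), and at E10.5 it was 1.81-fold lower (log2 difference -0.85, SE 0.12, limma adjusted p = 6.79e-05), which is below the 2-fold threshold although the libraries did not overlap. Against the 6.18 ± 0.332 RPM of E10.5 UGR it was higher by 2.57-fold in E10.5 AoV (log2 difference 1.35, SE 0.12, limma adjusted p = 1.09e-06) and by 4.65-fold in E10.5 AoD (log2 difference 2.2, SE 0.12, limma adjusted p = 3.53e-09).

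Spp1 was the most even of the 4 genes. It was 3.02, 3.6 and 2.31 RPM in E9.5 AoD, 4.19, 4.08 and 3.52 RPM in E9.5 AoV, and 5.61, 4.64 and 6.32 RPM in E10.5 AoD. At E10.5 it was 5.32, 5.01 and 6.47 RPM in AoV and 5.63, 5.74 and 5.91 RPM in UGR. All 9 libraries of E10.5 thus lay above all 6 of E9.5, and within each stage the positions overlapped.

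Spp1 was not called in any comparison. From E9.5 to E10.5 it went from 2.98 ± 0.646 to 5.52 ± 0.843 RPM in AoD (log2 difference 0.88, SE 0.15, limma adjusted p = 0.000168). In AoV it went from 3.93 ± 0.359 to 5.6 ± 0.769 RPM (log2 difference 0.50, SE 0.15, limma adjusted p = 0.0151). Both changes passed the adjusted p and missed the 2-fold threshold. That in AoD was called, at a log2 difference of 1.03, without replicate 2 of E9.5 AoD. That in AoV no longer passed without replicate 3 of E9.5 AoV (limma adjusted p = 0.0658) or without replicate 3 of E10.5 AoV (limma adjusted p = 0.0734). The interaction was -0.39 (95% interval -0.84 to 0.07, limma adjusted p = 0.213). Between AoV and AoD the log2 difference was 0.41 at E9.5 (SE 0.15, limma adjusted p = 0.0384), where the libraries overlapped. That limma adjusted p was above 0.05 under 7 alternatives and was 0.00547 with a replicate block within each stage, an alternative added after seeing the data. At E10.5 the difference between AoV and AoD was 0.02 (95% interval -0.30 to 0.35, limma adjusted p = 0.93). Against E10.5 UGR, at 5.76 ± 0.141 RPM, the differences were -0.05 for AoV (95% interval -0.37 to 0.28, limma adjusted p = 0.851) and -0.07 for AoD (95% interval -0.39 to 0.25, limma adjusted p = 0.764). The signs of these last 3 differences moved about 0 under quantile normalization, where they were -0.03, 0.00 and 0.03.

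**Figure D2:**
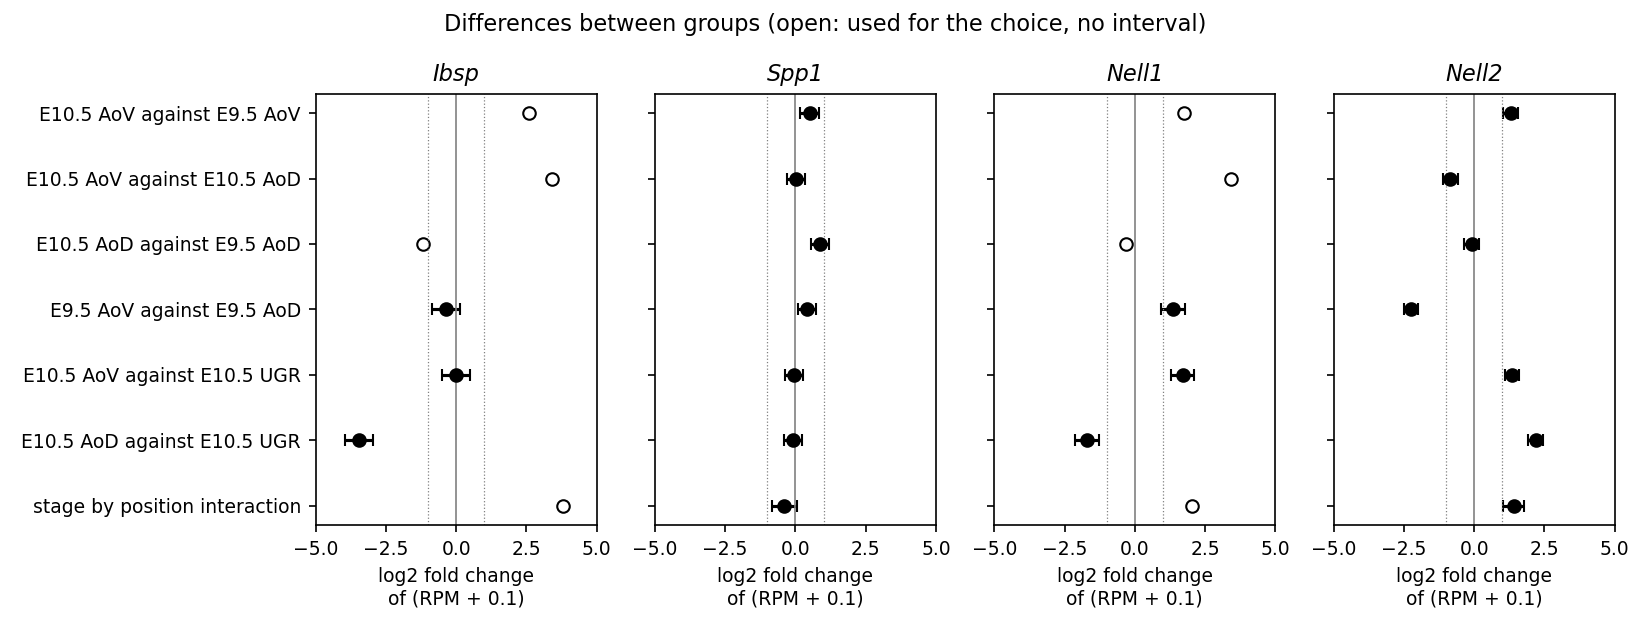
Log2 fold change of RPM + 0.1 (horizontal axes) for each gene in 6 comparisons of groups and in the stage by position interaction (rows), with 95% intervals from limma (bars), the 2-fold threshold at -1 and 1 (dotted) and open points without intervals where the contrast was used to choose the gene. The contrasts of Ibsp and Nell1 drawn with intervals share libraries with those used to choose them. The widest difference drawn with an interval is that of Ibsp between E10.5 AoD and UGR, at -3.44, Nell2 changes sign between comparisons, and every Spp1 value lies between the dotted lines.

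Counted over the genes that could be tested, the calls stood beside these shares of all 18553 genes. Calls of Ibsp and Nell1 come from contrasts that share libraries with those used for their choice. From E9.5 AoV to E10.5 AoV, Nell2 of the 2 tested was called higher, where 6.04% of all genes were higher and 4.99% lower. Neither Nell2 nor Spp1 was called between E10.5 AoV and E10.5 AoD (5.81% higher, 4.29% lower) or from E9.5 AoD to E10.5 AoD (8.6% higher, 4% lower), at the adjusted p values given above. At E9.5, AoV had 1 of the 4 genes higher, Nell1, and 1 lower, Nell2, than AoD (8.32% higher, 3.47% lower). Against UGR, E10.5 AoV had 2 of the 4 higher, Nell1 and Nell2 (3.84% higher, 3.73% lower), and E10.5 AoD had 1 higher, Nell2, and 2 lower, Ibsp and Nell1 (4.76% higher, 6.56% lower). The interaction called Nell2 of the 2 tested, with the more positive change in AoV (4.12% of all genes more positive, 6.89% more negative).

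The 2 genes of each family therefore did not keep a fixed ratio. Levels were divided by kb of annotated exon to compare genes, which assumes that reads were counted in exons. Per kb, the ratio of Nell2 to Nell1 was 29.5, 14.1 and 43.4 in the libraries of E9.5 AoD. In E10.5 AoD it was 34.5, 30.4 and 28.6. It was 2.05, 1.89 and 2.26 in E9.5 AoV, 1.52, 1.37 and 1.7 in E10.5 AoV, and 1.79, 2.22 and 1.88 in UGR. Nell2 was thus the higher of the 2 in every library, with dorsal ratios that did not overlap the others. The ratio of Spp1 to Ibsp was 2.49 ± 0.645 in E9.5 AoD, 4.3 ± 0.519 in E9.5 AoV and 11.7 ± 3.75 in E10.5 AoD. In E10.5 AoV and UGR it was 0.942 ± 0.128 and 0.957 ± 0.101, so that the sialoprotein RNA reached the level of osteopontin RNA in these groups. Per kb, E10.5 AoV held 3.61 ± 0.281 RPM of Ibsp, 3.4 ± 0.467 of Spp1, 2.59 ± 0.0976 of Nell1 and 3.95 ± 0.31 of Nell2, the group in which the 4 were most alike. In E10.5 AoD the same levels were 0.297 ± 0.0498, 3.35 ± 0.512, 0.229 ± 0.0166 and 7.14 ± 0.739 RPM per kb.

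**Figure D3:**
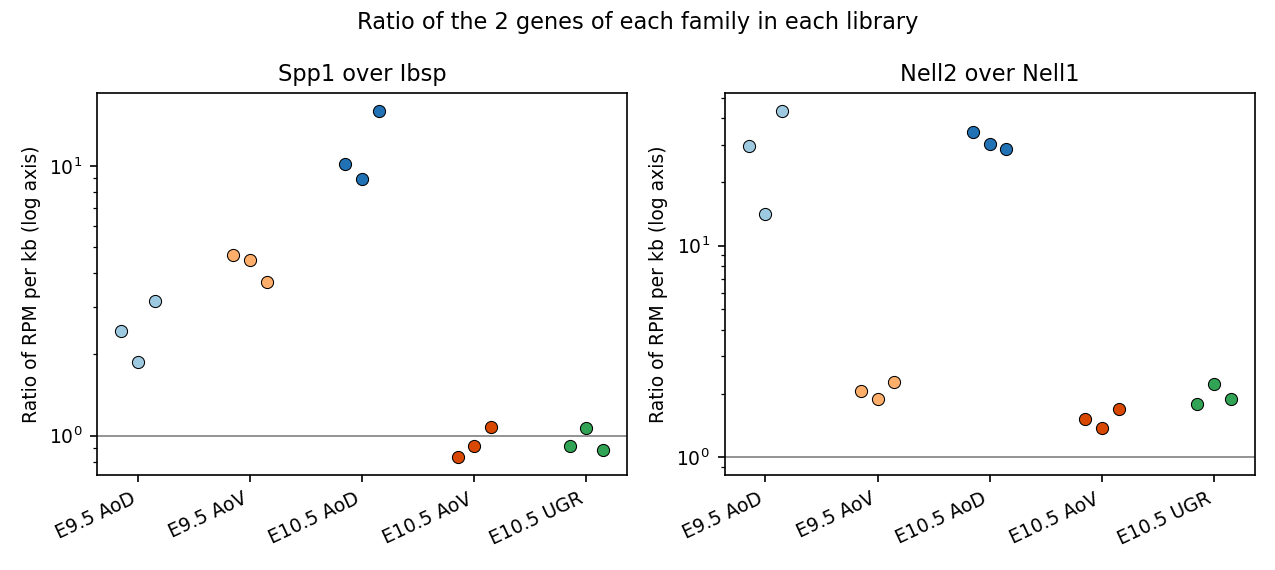
Ratio of RPM per kb of exon (log axes) of Spp1 over Ibsp and of Nell2 over Nell1 in each library (points) of the 5 groups, with a line at a ratio of 1. Spp1 over Ibsp falls to 0.83 to 1.08 in E10.5 AoV, and Nell2 over Nell1 is 14.1 or more in each AoD library and 2.26 or less elsewhere.

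The other SIBLING genes of the cluster, Dspp, Dmp1 and Mepe, stayed under 0.5 RPM in every library. Dspp, the precursor of dentin sialoprotein and dentin phosphoprotein, had 12, 19 and 9 reads (0.311, 0.486 and 0.21 RPM) in E10.5 AoV and 4, 5 and 1 reads in UGR. It had 1 read in each library of E9.5 AoD, 0, 2 and 0 in E9.5 AoV and 0, 0 and 1 in E10.5 AoD. Its E10.5 AoV libraries were thus the highest of the series, at levels under the 0.5 RPM needed for a test. Dmp1, a matrix phosphoprotein of osteocytes and dentin, had between 0 and 4 reads in every library and 0 in all 3 of E10.5 AoV. Mepe, a matrix phosphoglycoprotein of osteocytes, had 1 read in each E10.5 AoV library and in 1 UGR library and 0 elsewhere. Further along the chromosome, Pkd2, which encodes the calcium-permeable channel polycystin-2 and starts 18.4 kb past Spp1, was 85.6 ± 5.11 RPM in E9.5 AoV and 117 ± 3.06 RPM in E10.5 AoV (log2 difference 0.45, limma adjusted p = 2.64e-05). Sparcl1, a secreted relative of osteonectin on the other side of Ibsp, was 54.5 ± 3.3 and 78.5 ± 4.13 RPM in the same groups (log2 difference 0.53, limma adjusted p = 0.000115). Both stayed below the 2-fold threshold there.

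Around the NELL genes, Slc6a5, a glycine transporter gene 11 kb before Nell1, had at most 0.197 RPM in any library. Prmt3, an arginine methyltransferase gene 117 kb before Nell1, was 54.9 ± 1.28 RPM in E9.5 AoV and 47.6 ± 2.34 RPM in E10.5 AoV (log2 difference -0.21, limma adjusted p = 0.00217). Tmem117 overlaps the body of Nell2 on the opposite strand, and as strand is not stated for the counting, reads from shared exons could not be told apart. Tmem117 was between 0.48 ± 0.0252 and 0.793 ± 0.0974 RPM in the group means, below every Nell2 mean. Dbx2, 94.9 kb from Nell2, was 1.85 ± 0.992 RPM in E9.5 AoD and at most 0.176 RPM in the other group means. Like Nell2, it was lower in E9.5 AoV than in E9.5 AoD (log2 difference -3.55, limma adjusted p = 2.86e-07). Unlike Nell2, it was called lower in E10.5 AoD than in E9.5 AoD (log2 difference -3.52, limma adjusted p = 2.16e-07).

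Over the 15 libraries the log2 levels of Ibsp and Nell1 had a Pearson correlation of 0.784, the highest among the 4 genes, as a description of libraries that share groups. Nell2 correlated negatively with the other 3, at -0.437 with Ibsp, -0.488 with Nell1 and -0.291 with Spp1. The genes most like Ibsp among 16530 others were Cdh23, a cadherin gene of hair cells (r = 0.98), Nr2f2, the orphan nuclear receptor COUP-TFII (r = 0.98), Zfp277, Nxph3 and Ccdc136. Nr2f2 was 191 ± 3.21 RPM in E9.5 AoV, 393 ± 17.7 RPM in E10.5 AoV, 365 ± 12.2 RPM in UGR and 139 ± 4.51 RPM in E10.5 AoD, with the 2 high groups of Ibsp.

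The genes most like Nell1 were Kcnab1, a beta subunit of voltage-gated potassium channels (r = 0.992), the homeobox gene Pbx3 (r = 0.983), the defensin gene Defb42, the germ cell gene Dppa3 and the orphan nuclear receptor gene Esrrg. Kcnab1 was 12.5 ± 1.87 RPM in E9.5 AoV, 38 ± 3.01 RPM in E10.5 AoV and 13.6 ± 1.86 RPM in UGR, against 4.07 ± 1.48 and 3.07 ± 0.223 RPM in AoD at E9.5 and E10.5. Its highest E9.5 AoD library, at 5.72 RPM, was replicate 2, the same as for Nell1. In all, 30 genes had r above 0.95 with Nell1, 10 with Ibsp, and 3 each with Nell2 and Spp1.

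For Nell2 the nearest patterns were those of 6330407J23Rik (r = 0.97), the synaptotagmin gene Syt11 (r = 0.963), Tspan5, Rtn2 and Fbxl16. Syt11 was 70.4 ± 11.4 and 61.8 ± 5.01 RPM in AoD at E9.5 and E10.5, 37.8 ± 1.56 and 56 ± 2.04 RPM in AoV, and 40.9 ± 1.06 RPM in UGR. For Spp1 they were Bfar (r = 0.954), AC116136.1, 2310004N24Rik, the mitochondrial enoyl-CoA hydratase gene Ech1 and Wbp1. The mean RPM of each differed by less than 2-fold between stages in AoD and in AoV, as that of Spp1 did. Ech1 was 14.9 ± 1.73 and 27.2 ± 0.757 RPM in AoD and 21.1 ± 1.03 and 28.7 ± 1.4 RPM in AoV.

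**Figure D4:**
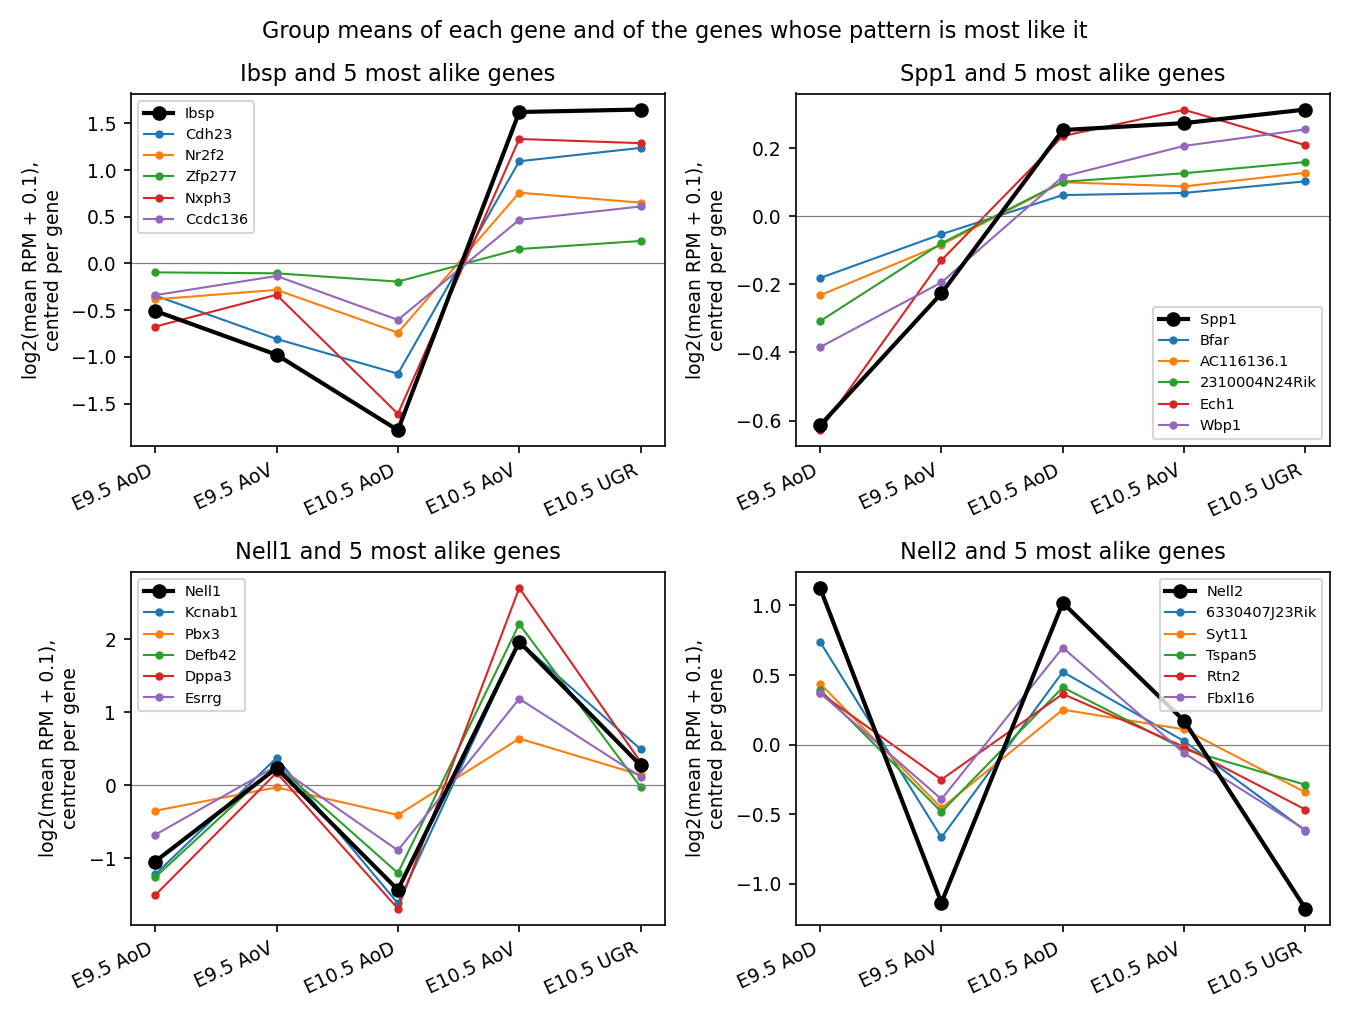
Group means as log2(mean RPM + 0.1), centred per gene (vertical axes), for each of the 4 genes (black) and its 5 most alike genes by Pearson correlation over 15 libraries (colours). The lines share their shape with a smaller range for most of the alike genes, and the genes like Ibsp are high in both E10.5 AoV and UGR, while those like Nell1 peak in E10.5 AoV.

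Receptors of these ligands and relatives of those receptors were described as a list of 17 genes. Of these 16 were in the table and tested, all but Atraid. They hold integrin subunits that bind RGD motifs or osteopontin, CD44, the ROBO receptors, ROS1 and the contactin-associated gene Cntnap4. Calls among them are read beside the shares of all tested genes given above. From E9.5 AoV to E10.5 AoV 1 of the 16 was called, Cntnap4, which fell by 1.83 on the log2 scale (limma adjusted p = 0.00027). Against E10.5 AoD, 2 were higher in E10.5 AoV and 3 lower. The higher pair was Robo2, with a log2 difference of 1.33 (limma adjusted p = 2.82e-06), and Ros1, with 1.19 (limma adjusted p = 0.0127). Itga4, Itgb6 and Cntnap4 were lower.

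Some receptor genes rose with stage on the dorsal side, where Ibsp and Nell1 were low. From E9.5 AoD to E10.5 AoD 5 of the 16 were called, all higher (8.6% of all tested genes higher, 4% lower). They were Itga4 (log2 difference 2.16), Itgb6, Cd44, Cntnap4 and Itgb3, a subunit of the vitronectin receptor that binds both SIBLING proteins. At E9.5, 6 were higher in AoV than in AoD and 1, Robo3, was lower (8.32% and 3.47% of all tested genes). The split of all calls in that comparison, 70.6% higher, was 59.4% higher under quantile normalization. Itgb3 was among the 6, at 9.29 RPM in E9.5 AoD and 25.7 RPM in E9.5 AoV (log2 difference 1.48, limma adjusted p = 5.08e-07). The interaction called 4 of the 16, all with the more negative change in AoV (6.89% of all tested genes, and 4.12% more positive). The median over the 16 was -0.48 there and 0.01 over all tested genes.

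Receptor genes were called in both directions between the aorta and the urogenital ridges. Of all tested genes, 3.84% were higher and 3.73% lower in E10.5 AoV than in E10.5 UGR. Against E10.5 UGR, E10.5 AoV had 2 of the 16 higher, Cd44 (log2 difference 2.06) and Itgb3 (1.68), and 2 lower, Ros1 (-2.90) and Itgb6 (-2.33). E10.5 AoD had 3 higher and 3 lower than UGR, where 4.76% of all tested genes were higher and 6.56% lower. Ros1 was 5.26 RPM in UGR and 0.256 RPM in E10.5 AoD (log2 difference -4.09, limma adjusted p = 1.82e-07). Cd44, a hyaluronan receptor that also binds osteopontin, was 5.29 RPM in UGR, 22.3 RPM in E10.5 AoV and 21.9 RPM in E10.5 AoD.

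A list of 18 bone matrix and osteoblast genes was set beside Ibsp and Nell1. Of these 15 were tested, since osteocalcin (Bglap1 and Bglap2) and Omd stayed under 0.5 RPM in every library. From E9.5 AoV to E10.5 AoV 1 of the 15 was higher and 4 were lower, where 6.04% of all tested genes were higher and 4.99% lower. The higher gene was Runx2, the master transcription factor of osteoblasts, at 1.25 and 3.73 RPM (log2 difference 1.46, limma adjusted p = 0.000271). Runx2 was also higher in E10.5 AoD than in E9.5 AoD (log2 difference 2.12, limma adjusted p = 5.22e-06), and its interaction was -0.66 (limma adjusted p = 0.199). The genes that fell were Dlx3 (by 3.89), Msx2 (by 2.16), Dlx5 (by 1.84) and Enpp1 (by 1.52 on the log2 scale). Sp7, which acts after Runx2 in osteoblasts, was 1.28 and 0.936 RPM (log2 difference -0.42, limma adjusted p = 0.182).

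Between E10.5 AoV and E10.5 AoD, 2 of the 15 bone genes were called, both higher in AoV, where 5.81% of all tested genes were higher. They were Msx2 (log2 difference 1.51, limma adjusted p = 9.41e-07) and Alpl, the tissue-nonspecific alkaline phosphatase needed for mineralization (1.53, limma adjusted p = 6.36e-09). The median over the 15 was 0.00, against 0.02 over all tested genes. At E9.5, 6 of the 15 were higher in AoV than in AoD (8.32% of all tested genes), among them Col1a1 (log2 difference 3.01) and Enpp1 (3.04). From E9.5 AoD to E10.5 AoD 4 were higher and 4 lower (8.6% and 4% of all tested genes). Against UGR, 2 were higher and 1 lower in E10.5 AoV (3.84% and 3.73%), and 2 were called in E10.5 AoD, both lower (6.56%). In the interaction 1 had the more positive change in AoV, Alpl (1.88), and 4 the more negative (4.12% and 6.89% of all tested genes).

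Markers of the tissues around the aorta moved with several of these genes in some comparisons, and their part in the results was not tested. For Ibsp and Nell1, the list is that of coelomic epithelium and the adrenogonadal primordium, with 7 of 8 genes tested. Their summed level was 201 to 265 RPM in E9.5 AoD, 693 to 774 RPM in E9.5 AoV and 117 to 147 RPM in E10.5 AoD. It was 1190 to 1270 RPM in E10.5 AoV and 984 to 1080 RPM in UGR. Podxl was the largest part of the sum in each AoD and AoV group. It was 167 RPM in E9.5 AoD, 542 RPM in E9.5 AoV, 71.0 RPM in E10.5 AoD and 460 RPM in E10.5 AoV. With stage in AoV it was not called (log2 difference -0.23). From E9.5 AoV to E10.5 AoV 5 of the 7 were higher, where 6.04% of all tested genes were. They were led by the steroidogenic factor gene Nr5a1 at 0.581 and 65.8 RPM (log2 difference 6.60) and by Lhx9 (4.41). All 7 were higher in E10.5 AoV than in E10.5 AoD (5.81% of all tested genes) and lower in E10.5 AoD than in UGR (6.56%). All 7 had a positive interaction call (4.12%). In E10.5 AoV against UGR 2 were higher (3.84%), Gata4 (1.87) and Lhx9 (1.09). From E9.5 AoD to E10.5 AoD 1 was higher and 2 lower (8.6% and 4%), and at E9.5 4 were higher in AoV (8.32%). Ibsp did not follow the list at E9.5, at 1.15 RPM in AoV and 1.63 RPM in AoD (log2 difference -0.37, limma adjusted p = 0.209). Nell1 was higher in E9.5 AoV than in E9.5 AoD (log2 difference 1.35). No gene of this or of the other marker lists was at 0 in all 3 libraries of a group.

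Nephric epithelium markers, 11 genes, summed to 584 to 590 RPM in UGR and to 113 to 136 RPM in E10.5 AoV. They summed to 78.1 to 81.2 RPM in E9.5 AoV, 78.5 to 93.8 RPM in E10.5 AoD and 74.5 to 134 RPM in E9.5 AoD. All 11 were lower in E10.5 AoV than in UGR (3.73% of all tested genes), where the log2 difference of Ibsp was -0.02. In E10.5 AoD 10 were lower than in UGR (6.56%). From E9.5 AoV to E10.5 AoV 4 were higher and 1 lower (6.04% and 4.99%). Against E10.5 AoD 8 were higher and 1 lower in E10.5 AoV (5.81% and 4.29%). Replicate 2 of E9.5 AoD, the high library for Ibsp and Nell1, had the highest nephric sum of its group, at 134 RPM against 94.7 and 74.5 RPM, and the highest coelomic sum, at 265 RPM against 239 and 201 RPM.

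For Nell2 the list is that of 12 neuron and neural progenitor genes. It summed to 271 to 385 RPM in E9.5 AoD, 259 to 321 RPM in E10.5 AoD and 129 to 134 RPM in E10.5 AoV. In E9.5 AoV the sum was 90.5 to 97.3 RPM, and in UGR 49.0 to 56.6 RPM. The AoV sums rested largely on 1 gene, Isl1, at 63.4 RPM in E9.5 AoV and 68.1 RPM in E10.5 AoV (log2 difference 0.11, not called). At E9.5 10 of the 12 were lower in AoV than in AoD and 1, Isl1, was higher (3.47% and 8.32% of all tested genes). At E10.5 11 were lower in AoV and Isl1 was again higher (4.29% and 5.81%), and 11 were higher in E10.5 AoD than in UGR (4.76%). From E9.5 AoV to E10.5 AoV, where Nell2 rose, 5 were higher and 1 lower (6.04% and 4.99%). Among the higher were Elavl3 (log2 difference 2.44) and Tubb3 (1.92). In the interaction 7 had a positive call and 1 a negative one (4.12% and 6.89%). From E9.5 AoD to E10.5 AoD 3 were higher and 6 lower (8.6% and 4%). Replicate 3 of E9.5 AoD, the high library for Nell2, had a sum of 385 RPM against 271 and 272 RPM. Sclerotome and cartilage genes, 7 of them tested, summed to 1400 to 1750 RPM in E10.5 AoD and 239 to 273 RPM in E10.5 AoV. Between these groups 4 of the 7 were called, all lower in AoV (4.29% of all tested genes).

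For Spp1 the list is that of 12 macrophage genes, which were low at E9.5. Their sum was 7.2 to 12 RPM in E9.5 AoD and 15.1 to 17.7 RPM in E9.5 AoV, against 80.0 to 90.1 RPM in E10.5 AoD, 63.2 to 73.5 RPM in E10.5 AoV and 49.0 to 55.2 RPM in UGR. From E9.5 to E10.5 11 of the 12 were higher in AoV and 10 in AoD, where 6.04% and 8.6% of all tested genes were higher. Among them were the lysozyme gene Lyz2 (log2 differences 2.33 and 3.82) and Csf1r, the receptor that macrophages depend on (1.78 and 3.94). The differences of Spp1 over the same steps were 0.50 and 0.88, and both Spp1 and the macrophage sum separated all E10.5 from all E9.5 libraries.

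**Figure D5:**
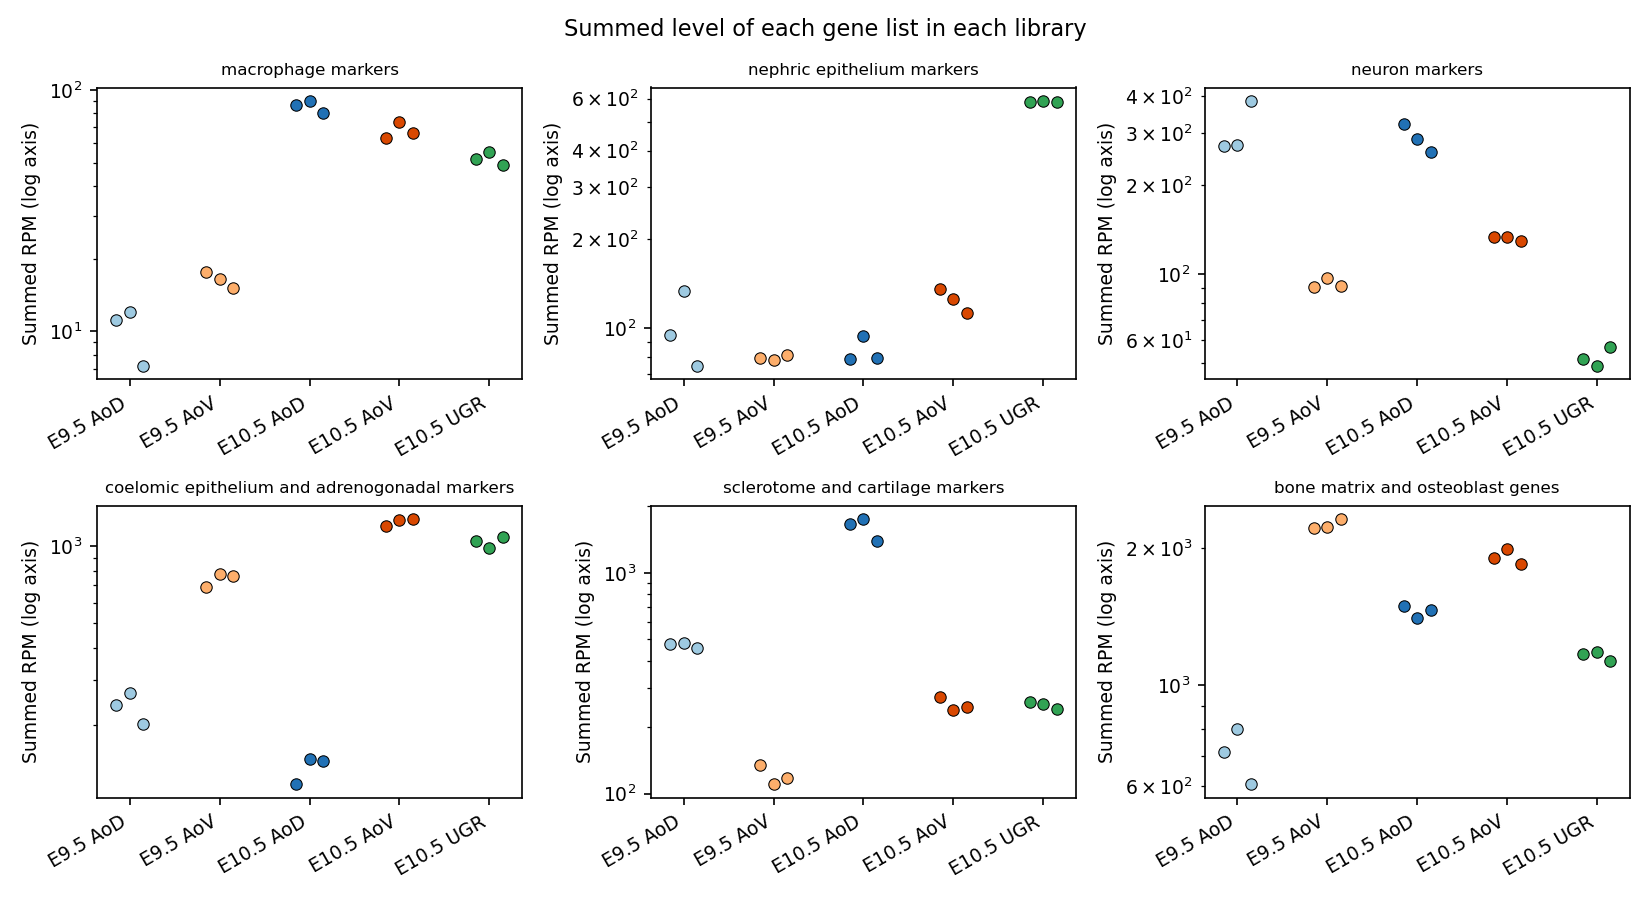
Summed RPM (log axes) of 6 lists of marker genes in each library (points) of the 5 groups. The coelomic and adrenogonadal sum is lowest in E10.5 AoD at 117 to 147 RPM, the neuron sum is highest in the AoD groups, the macrophage sum rises at E10.5 in every tissue sampled at both stages, and the nephric sum peaks in UGR at 584 to 590 RPM.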

How the data were processed

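RNA was sequenced in 15 libraries, 5 groups of 3. The authors dissected and pooled tissue, made TruSeq libraries with DNase I treated RNA, aligned reads to NCBIM37/mm9 with TopHat and Bowtie 0.12.3, and assigned them to Ensembl genes in GeneProf, dividing reads that matched several genes. The deposited values are RPM, which the authors did not adjust for length or between libraries and which are rounded to 3 significant digits. The 12 columns of the authors' DESeq comparisons (log2 fold changes and adjusted p-values) were not used. Depth was inferred from the steps between low values. Whole reads were not recovered, since 64.1% to 66.8% of low values were whole multiples of a step, and read numbers are therefore approximate.

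A model of log2(RPM + 0.1) with a mean for each group was fitted in R 4.3.3 by limma 3.58.1, using trended empirical Bayes moderation and Benjamini-Hochberg adjustment over 18553 genes with at least 0.5 RPM in 1 library, after a check on simulated data. Exon lengths and positions came from GENCODE vM1, promoters from RefSeq. The genes and gene lists were chosen with earlier results of these data known. Named genes are the 4 genes, the 5 with the highest correlation to each among genes with a mean of 1 RPM in a group, neighbours within 250 kb, and list members that were called or define a list. Deviations of same-numbered libraries from their group means correlated at 0.19 to 0.452 between E9.5 AoD and E9.5 AoV (other numbers -0.345 to -0.0191), so that these libraries may be paired. Between the E10.5 groups the deviations correlated at 0.0416 to 0.339 and across stages at -0.138 to 0.216, not every pair above 0.1. The main fit held no term for pairs, which entered only through the replicate blocks among the alternatives. With the block within each stage, the limma adjusted p for E9.5 AoV against E9.5 AoD was 1.38e-05 for Nell1, 6.57e-09 for Nell2, 0.00547 for Spp1 and 0.147 for Ibsp. The study describes separate experiments, and the labels do not say that a number marks one. Alternatives were pseudocounts, filters, scalings, a replicate block over all samples and, added after seeing the data, within each stage, single libraries left out, and only the groups compared.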

Additional observations from a re-analysis of the deposited data

Results flagged for a closer look

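Ibsp changed in opposite directions with stage on the 2 sides of the aorta. All 3 E10.5 AoV libraries were above all 3 E9.5 AoV libraries, and all 3 E10.5 AoD libraries were below all 3 E9.5 AoD libraries. The change in AoV minus that in AoD was 3.79 on the log2 scale. This difference was not tested, because Ibsp had been chosen for it. The gap between AoD groups was narrow, from 0.692 RPM in the highest E10.5 library to 0.919 RPM in the lowest E9.5 library.

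For Nell2 the difference between the changes was tested and passed, at 1.40 on the log2 scale (SE 0.18, limma adjusted p = 3.16e-05). All 3 E10.5 AoV libraries were above all 3 of E9.5 AoV, while the AoD libraries of the 2 stages overlapped.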

How the results depend on the processing

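Of the log2 differences of the 4 genes recomputed under the alternatives, 641 kept their direction and, where tested, their call, or, where not tested, moved by less than the spread between libraries. Of the rest 12 changed sign, 10 moved by more than that spread and 1 was newly called. A call needs both thresholds, and the adjusted p alone changed side in 11 cases without a change of call. They were 7 for Spp1 between E9.5 AoV and E9.5 AoD, with adjusted p from 0.0617 to 0.338, and 2 each for Spp1 in AoV with stage and for Ibsp between E9.5 AoV and E9.5 AoD, given in the report. With a pseudocount of 1 RPM the numbers of genes called were 1104 for E10.5 AoV against E9.5 AoV, 1020 for E10.5 AoV against E10.5 AoD, 1281 for E10.5 AoD against E9.5 AoD, 1196 for E9.5 AoV against E9.5 AoD, 735 and 1143 for E10.5 AoV and AoD against UGR, and 1174 for the interaction, down from 2046, 1874, 2337, 2187, 1404, 2100 and 2044. By the construction of that setting low genes shrink. Ibsp then gave 1.98, 2.39 and -0.67 for the first 3 comparisons and 2.64 for the interaction, and Nell1 gave 2.79 for E10.5 AoV against E10.5 AoD and 1.78 for the interaction. Differences close to 0 changed sign. Under quantile normalization Spp1 gave -0.03 for E10.5 AoV against E10.5 AoD, 0.00 against UGR in AoV and 0.03 in AoD, and Ibsp gave 0.03 for E10.5 AoV against UGR, where median-ratio scaling gave 0.01.

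With single libraries left out, E10.5 AoD against E9.5 AoD ranged from -1.53 to -0.87 for Ibsp, from -0.50 to 0.00 for Nell1, from -0.20 to 0.08 for Nell2 and from 0.72 to 1.03 for Spp1, the ends resting on replicates 2 and 3 of E9.5 AoD. The interaction ranged from 3.47 to 4.12 for Ibsp and from 1.74 to 2.24 for Nell1. Spp1 ranged from -0.10 to 0.12 for E10.5 AoV against E10.5 AoD, from -0.15 to 0.03 for E10.5 AoV against UGR and from -0.17 to 0.05 for E10.5 AoD against UGR, and Ibsp from -0.11 to 0.05 for E10.5 AoV against UGR. The cause of these changes was not tested. With a replicate block the 7 comparisons called 2045, 1876, 2339, 2188, 1408, 2102 and 2067 genes, and no call among the 4 genes changed. With a replicate block within each stage, chosen after seeing the data, the 5 comparisons of differences within a stage called 1877, 2188, 1409, 2107 and 2101 genes (E10.5 AoV against AoD, E9.5 AoV against AoD, E10.5 AoV and AoD against UGR, interaction), again with no change of call among the 4 genes. The changes with stage were not recomputed with that block, which holds no libraries of both stages. Dspp, Dmp1 and Mepe were under the filter of 0.5 RPM, and Ibsp in E10.5 AoD rested on 21 to 27 reads.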
